A study of Homo sapiens with 4 samples.

Results

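The 7 genes described here encode intermediate filament proteins of neurons and neural precursors: the neurofilament light, medium and heavy subunits (NEFL, NEFM and NEFH), alpha-internexin (INA), peripherin (PRPH), nestin (NES) and vimentin (VIM). They were taken as a family, by name, and each matched 1 of the 60651 gene IDs of the count table. The cells were CHP134, an established human neuroblastoma line with MYCN amplification. They were treated for 24 h with the vehicle DMSO at 0.04%, with 5 µM 13-cis retinoic acid (13cRA, a retinoid given to patients with neuroblastoma), with 10 µM doxazosin (a blocker of alpha-1 adrenergic receptors), or with both drugs at those doses (the combination). There was 1 sample per treatment, from 1 cell line in culture, and full-length libraries of single cells were made in nanowells. With 1 sample per treatment no difference has a replicate error, and no p-value is given; intervals cover counting error only. Levels are CPM, the summed counts of a library scaled to a total of 1000000, and a difference is called past the fold where at least 1 of the 2 libraries has 5 CPM and the levels differ at least 1.5-fold.

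Intermediate filaments are ropes of coiled-coil proteins that give a cell mechanical strength. In mature axons NEFL forms the core with NEFM and NEFH, whose long phosphorylated tails project from the filament and are tied to axon calibre, while INA and PRPH co-assemble with them in central and peripheral neurons. Precursor cells use VIM and NES instead, and sympathetic neuroblasts, from which neuroblastoma arises, can carry both kinds.

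PRPH, NES and VIM were all lower by at least 1.5-fold in CPM in the combination than in DMSO and than in 13cRA, while INA stayed within 1.5-fold in every comparison; the limits of these calls are given with each gene below, and between 13cRA and DMSO NES differed where PRPH and VIM did not pass the fold. The 250 bases before the start of these 4 genes are shown for that contrast. NEFL was also past the fold below DMSO in the combination, and NEFM and NEFH below 13cRA, but no sequence is shown for them. The sequences come from the RefSeq promoter table of GRCh38.p14, 5′ to 3′ on the strand of the gene. Capitals mark AGGTCA (the half-site of retinoic acid receptors), GGGCGG (the GC box bound by SP1), TATAAA (the TATA box) and their reverse complements, and CACGTG, the E-box bound by MYC proteins, was also searched.
PRPH, chr12:49294897-49295146, plus strand: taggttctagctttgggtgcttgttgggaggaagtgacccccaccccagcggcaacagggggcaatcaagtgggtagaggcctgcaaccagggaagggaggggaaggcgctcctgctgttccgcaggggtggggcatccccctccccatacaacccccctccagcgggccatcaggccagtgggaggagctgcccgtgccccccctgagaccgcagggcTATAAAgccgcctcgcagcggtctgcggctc
NES, chr1:156677408-156677657, minus strand: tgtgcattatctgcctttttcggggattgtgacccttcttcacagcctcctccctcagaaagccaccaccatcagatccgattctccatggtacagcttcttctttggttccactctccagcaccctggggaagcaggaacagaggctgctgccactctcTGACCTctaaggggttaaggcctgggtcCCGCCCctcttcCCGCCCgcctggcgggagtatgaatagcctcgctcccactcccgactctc
VIM, chr10:17227991-17228240, plus strand: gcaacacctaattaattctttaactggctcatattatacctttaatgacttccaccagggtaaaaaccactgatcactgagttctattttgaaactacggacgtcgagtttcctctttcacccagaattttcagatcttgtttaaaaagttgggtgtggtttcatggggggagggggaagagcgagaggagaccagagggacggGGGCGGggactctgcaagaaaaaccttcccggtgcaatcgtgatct
INA, chr10:103276888-103277137, plus strand: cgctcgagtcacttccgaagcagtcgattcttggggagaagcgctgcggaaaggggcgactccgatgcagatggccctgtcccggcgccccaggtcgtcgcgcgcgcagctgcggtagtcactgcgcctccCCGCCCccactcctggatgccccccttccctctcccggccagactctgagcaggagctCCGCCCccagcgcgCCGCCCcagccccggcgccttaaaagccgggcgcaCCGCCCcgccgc
Starts here are those of RefSeq; that of PRPH lies 1895 bases inside the gene as GENCODE 29 draws it, and the other 3 lie 10 to 25 bases before theirs. PRPH held 1 TATA box, from 31 to 26 bases before its RefSeq start, and no GC box. NES held 1 retinoic acid receptor half-site, from 90 to 85 bases before its start, and 2 GC boxes. VIM held 1 GC box and INA held 4. INA was the richest in G and C, with 72.8% and 30 CpG pairs, against a median of 58% and 11 pairs over 35116 windows of the same length, and VIM the poorest of these 4 with 46%. No window of these 4 held CACGTG. Over all 35116 windows, 12.1% held the half-site, 42.6% a GC box, 10.7% a TATA box and 6.34% the E-box, on either strand. These are matches of letters in these windows only.

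The count table held 1287 cells, of which 1197 passed the cell filter: 353 DMSO, 318 13cRA, 239 doxazosin and 287 combination cells. Total counts per library ran from 22636509 (13cRA) to 72192743 (combination). The 13cRA library stood apart: its kept cells had the lowest median count (59200, against 122615 to 221558), the lowest median of genes at an equal depth (3891, against 4689 to 4777) and the highest median share of mitochondrially encoded counts (13.2%, against 10.1% to 10.6%). Of the 8 neuroblastoma markers listed, 6 reached 5 CPM in every library, and DBH and TH were below 1 CPM in all 4. The summed level of markers of other cell types was in no library above 0.91 CPM for leukocyte, 1.94 CPM for epithelial and 9.72 CPM for Schwann cell genes. Fibroblast markers summed to 8.60 to 24.0 CPM and endothelial markers to 5.65 to 23.5 CPM, both highest in 13cRA, through COL3A1 (10.3 CPM, with 77.4% of its reads from 1 cell) and CLDN5 (19.8 CPM, with 8.5% from 1 cell). The part that these differences between libraries play in the results below was not tested.

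All 7 genes were measured, with at least 5 CPM in every library. In 13cRA, 3 of the 7 were higher than in DMSO by at least 1.5-fold (NEFM, NEFH and NES) and none was lower; over 10222 genes tested, 17.1% were higher and 13.5% lower. In doxazosin none of the 7 differed from DMSO by 1.5-fold, where 4.2% of genes were higher and 4.57% lower. In the combination 1 gene was higher than in DMSO (NEFM) and 4 were lower (PRPH, NEFL, NES and VIM), where 8.5% of genes were higher and 8.46% lower. Against 13cRA alone, 5 of the 7 were lower in the combination and none higher (NES, PRPH, NEFH, NEFM and VIM), beside 16.9% of genes lower and 13.2% higher. Against doxazosin alone, NEFM was higher and PRPH lower in the combination, beside 9.5% of genes higher and 7.58% lower. The comparisons share libraries, so these counts are not independent of each other.

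The scaling bears on the 13cRA library. Between 13cRA and DMSO all genes together had a median log2 difference of 0.00 in CPM, -0.32 when scaled with TMM and -0.28 when scaled with DESeq2; between the combination and 13cRA it was -0.03, 0.27 and 0.20. With either set of factors the 13cRA comparison held 3 genes higher and 1 lower, the latter being NEFL, and the comparison of the combination with 13cRA held 3 lower in place of 5, without NEFM and VIM.

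**Figure D1:**
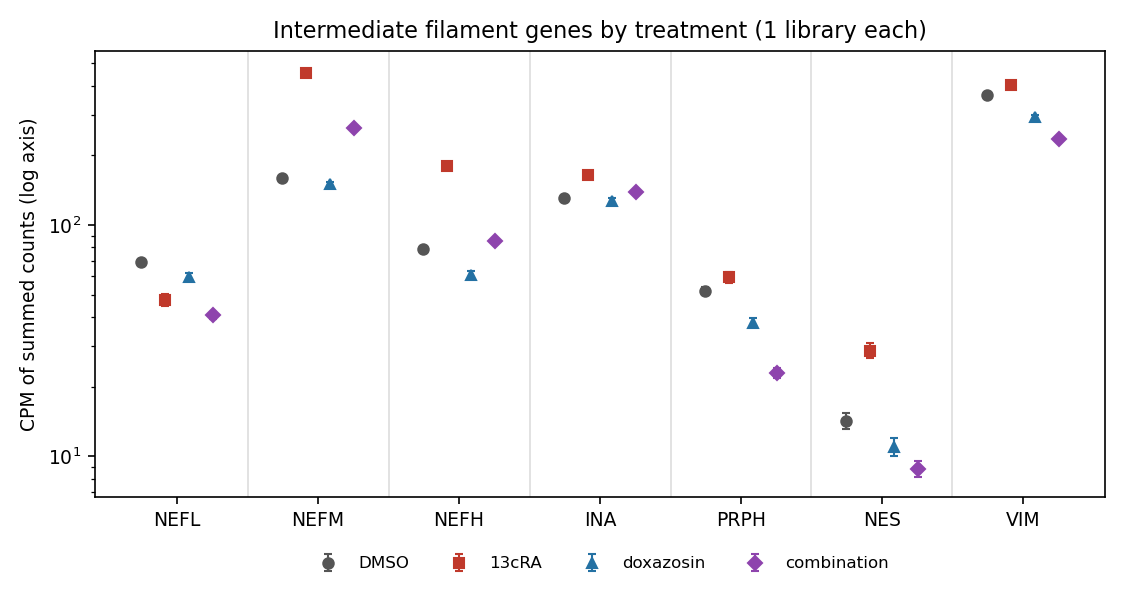
Level of each gene in CPM of summed counts (log axis) in the 4 libraries, with exact 95% Poisson intervals, which are mostly smaller than the symbols. All genes but NEFL are highest in 13cRA, where NEFM, NEFH and NES are past 1.5-fold against DMSO. NEFL, PRPH, NES and VIM are lowest in the combination.

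NEFM, the medium neurofilament subunit, had the largest difference of the 7 between 13cRA and DMSO. Its level was 159.6 CPM in DMSO, 454.9 with 13cRA, 150.4 with doxazosin and 262.2 with both drugs. Both libraries with 13cRA were thus high and both without it low. The 13cRA level was 2.85-fold that in DMSO (95% interval 2.77 to 2.94), which placed NEFM above 96.7% of all genes tested. The combination level was 1.64-fold that in DMSO (1.60 to 1.69) and 1.74-fold that in doxazosin (1.70 to 1.79). It was also 1.73-fold below that in 13cRA alone (1.69 to 1.78). Among cells with 4000 to 4600 genes at equal depth, which narrows the gap in genes per cell between the libraries, the log2 difference between 13cRA and DMSO was 0.78 in place of 1.51, and that between the combination and 13cRA was -0.22 in place of -0.79. Against DMSO the combination was then at 0.56, and at 0.40 among cells with 34000 to 120000 counts, both short of the fold, where the value over all kept cells was 0.71; among the latter cells it was at 0.52 against doxazosin in place of 0.80.

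NEFH, the longest-tailed subunit, was also highest in 13cRA. Its level was 79.0 CPM in DMSO, 180.1 with 13cRA, 60.7 with doxazosin and 84.9 with both drugs. The 13cRA library was high and the other 3 lay between 60.7 and 84.9 CPM. The level in 13cRA was 2.28-fold that in DMSO (2.18 to 2.38) and that in the combination 2.12-fold below it (2.04 to 2.21). The combination and DMSO were 1.07-fold apart (1.03 to 1.12), and 1 cell held 12.5% of the NEFH reads of the combination. Without the 5 cells with the most NEFH reads in each library the log2 difference between them was -0.02 in place of 0.10, so no direction is given. Against doxazosin the combination was 1.40-fold higher (1.34 to 1.46), which is not past the fold, but it was past it among cells with 34000 to 120000 counts (log2 difference 0.85 in place of 0.48). Among cells with 4000 to 4600 genes at equal depth the log2 difference between 13cRA and DMSO was 0.59 in place of 1.18.

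NEFL, on which the other subunits depend for assembly, went the other way. Its level was 69.2 CPM in DMSO, 47.3 with 13cRA, 59.9 with doxazosin and 40.7 with both drugs. Both libraries with 13cRA were the low ones. The level in the combination was 1.70-fold below that in DMSO (1.62 to 1.79), a call that was lost with summed thinned counts (log2 difference -0.57 in place of -0.75) and among cells with 4000 to 4600 genes at equal depth (-0.40). That in 13cRA was 1.46-fold below DMSO (1.37 to 1.57), short of the fold with CPM but past it under TMM (log2 difference -0.87) and DESeq2 scaling (-0.83). The combination and 13cRA differed by a log2 difference of -0.21, which was 0.10 under TMM scaling and 0.03 under that of DESeq2.

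Ratios between genes of 1 library do not depend on the scaling. Per kb of exon, NEFM counts were 2.28 times those of NEFL in DMSO (2.19 to 2.38) and 2.48 times in doxazosin (2.37 to 2.59), but 9.51 times in 13cRA (8.93 to 10.1) and 6.37 times in the combination (6.13 to 6.63). The pair of libraries with 13cRA stood well apart from the pair without it. NEFH to NEFL went in the same way, from 1.31 in DMSO and 1.16 in doxazosin to 4.36 in 13cRA and 2.39 in the combination. INA to NEFL was 2.55, 2.84, 4.69 and 4.58 in that order. NEFM to NEFH moved less: it was 1.74 in DMSO, 2.14 in doxazosin, 2.18 in 13cRA and 2.67 in the combination. Among cells with 4000 to 4600 genes at equal depth the NEFM to NEFL ratio was 2.90 in DMSO, 2.12 in doxazosin, 6.49 in 13cRA and 5.68 in the combination, so both libraries with 13cRA remained above both without it.

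**Figure D2:**
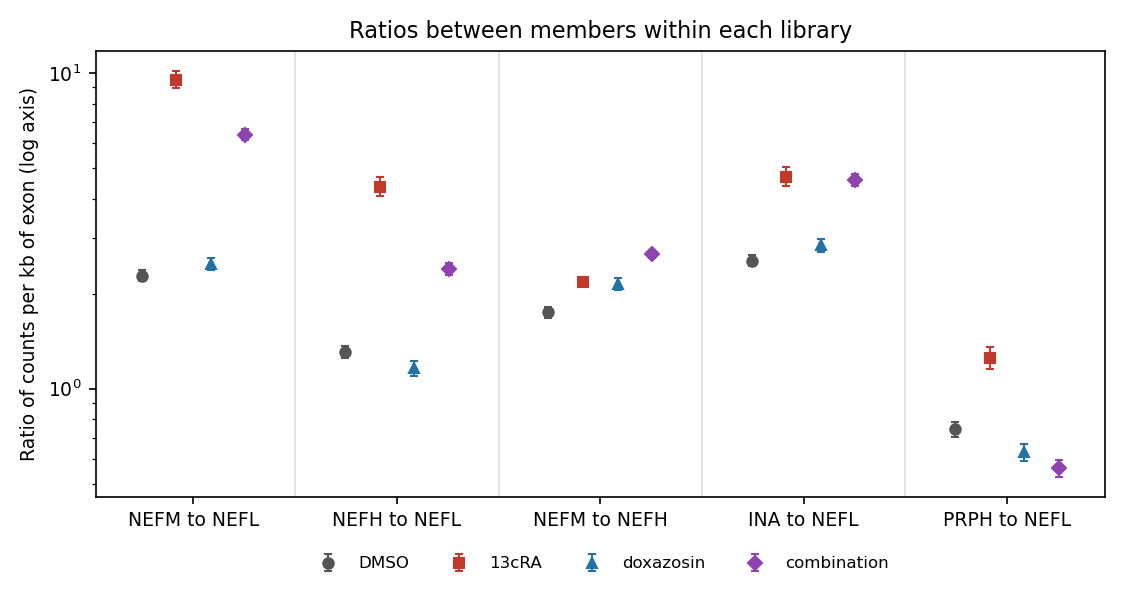
Ratio of counts per kb of exon between pairs of genes within each library (log axis), with exact 95% intervals from counting error. The NEFM to NEFL ratio is 9.51 in 13cRA and 6.37 in the combination, against 2.28 in DMSO and 2.48 in doxazosin.

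INA, which assembles with the neurofilament subunits, stayed within 1.5-fold in all 5 comparisons. Its level was 131.4 CPM in DMSO, 165.4 with 13cRA, 127.1 with doxazosin and 139.1 with both drugs. The DMSO and doxazosin intervals overlapped (128.1 to 134.6 and 123.9 to 130.4). The 13cRA level was 1.26-fold that in DMSO (1.21 to 1.31), a log2 difference of 0.33 that was 0.00 under TMM scaling and 0.04 under that of DESeq2. The combination was 1.06-fold above DMSO (1.03 to 1.09), and without the 5 cells with the most INA reads the log2 difference was -0.02 in place of 0.08.

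PRPH, the filament protein typical of peripheral and sympathetic neurons, was lowest in the combination. Its level was 51.7 CPM in DMSO, 59.5 with 13cRA, 37.9 with doxazosin and 22.9 with both drugs. Both libraries with doxazosin were below both without it, though among cells with 4000 to 4600 genes at equal depth 13cRA (log2 difference from DMSO -0.46) lay below doxazosin (-0.07). The combination was 2.26-fold below DMSO (2.12 to 2.40), 2.60-fold below 13cRA (2.42 to 2.79) and 1.65-fold below doxazosin (1.55 to 1.77); only 1.42% of genes tested had a lower log2 difference against DMSO. Doxazosin alone was 1.36-fold below DMSO (1.28 to 1.45), which is not past the fold. The log2 difference between 13cRA and DMSO was 0.20 with CPM, -0.13 under TMM scaling and -0.09 under that of DESeq2, so its sign is not settled. Among those cells the combination was no longer past the fold against 13cRA (log2 difference -0.24 in place of -1.34).

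NES, a mark of neural precursors, was the lowest of the 7 per kb of exon. Its level was 14.2 CPM in DMSO, 28.7 with 13cRA, 11.0 with doxazosin and 8.84 with both drugs. The 13cRA library was high and the combination low. The level in 13cRA was 2.02-fold that in DMSO (1.81 to 2.25) and 3.24-fold that in the combination (2.90 to 3.62), the latter the largest fold of the 7 genes in any comparison. The combination was 1.61-fold below DMSO (1.44 to 1.80), a call that was lost with the mean of per-cell CPM (log2 difference -0.19 in place of -0.63), with a pseudocount of 5 CPM (-0.47), with no cell filter (-0.46), with summed thinned counts (-0.29) and among the cells of either window of counts or genes (-0.46 and -0.57). The combination and doxazosin differed by a log2 difference of -0.28, which was 0.16 with the mean of per-cell CPM, 0.02 with no cell filter, 0.28 with summed thinned counts, and 0.10 and 0.22 in those windows.

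VIM, the main filament of mesenchymal and immature neural cells, was lowest in the combination. Its level was 365.7 CPM in DMSO, 404.1 with 13cRA, 293.6 with doxazosin and 234.9 with both drugs. Both libraries with doxazosin were below both without it, though among cells with 4000 to 4600 genes at equal depth 13cRA and doxazosin were level (log2 difference from DMSO -0.42 and -0.43). The combination was 1.56-fold below DMSO (1.52 to 1.59) and 1.72-fold below 13cRA (1.68 to 1.76); among those cells the latter was at -0.57 on the log2 scale, short of the fold, in place of -0.78. With doxazosin alone the level was 1.25-fold below that in DMSO (1.22 to 1.27), which is not past the fold. The log2 difference between 13cRA and DMSO was 0.14, and it was -0.19 under TMM scaling, -0.15 under that of DESeq2 and -0.01 without the 5 cells with the most VIM reads. The 7 markers listed for a mesenchymal state, among them TWIST1 and PRRX1, summed to 96.6 CPM in DMSO, 132.8 with 13cRA, 95.5 with doxazosin and 87.4 with both drugs. TWIST1 made up most of that sum, with 73.85 CPM in DMSO and 114 with 13cRA. PRRX1 went the other way, from 6.17 CPM in DMSO to 1.635 with 13cRA. No marker of this list other than TWIST1 was above 6.73 CPM in any library.

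Doxazosin alone gave values below DMSO for all 7 genes, with log2 differences from -0.05 (INA) to -0.44 (PRPH) and a median of -0.32, where the median of all genes was -0.02. None was past the fold, but NES was so among cells with 4000 to 4600 genes at equal depth (-0.79). The sign for NEFL turned with summed thinned counts (0.01) and among the same cells (0.15).

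The combination was also set against the sum of the 2 single-drug differences on the log2 scale, where 0 means that they add. NEFL was at -0.01, and the sign of that value turned with both scalings. INA was at -0.20, VIM at -0.46, NEFH at -0.70, NEFM at -0.71, PRPH at -0.90 and NES at -1.25, where the median of all genes was 0.02. For NEFM and NEFH the difference that goes with 13cRA was thus smaller beside doxazosin than without it (0.80 against 1.51 and 0.48 against 1.18, both log2). Among cells with 4000 to 4600 genes at equal depth the values were 0.081 for NEFM, 0.17 for INA, -0.14 for VIM, -0.17 for PRPH, -0.51 for NEFH and -0.54 for NES. NEFH was at -0.16 among cells with 34000 to 120000 counts, and INA turned to 0.09 with TMM factors.

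Levels of different genes are compared here per kb of exon, since full-length libraries give more counts to longer transcripts. With the length of all exons joined, the order in DMSO was VIM (70.9 CPM per kb), INA (40.7), NEFM (36.4), NEFH (20.9), NEFL (16.0), PRPH (11.9) and NES (2.56). With this length each neighbour in that order had an interval apart from the next, and doxazosin had the same order. In 13cRA NEFM was first (103.8 CPM per kb), ahead of VIM (78.3), INA (51.2), NEFH (47.6), PRPH (13.7), NEFL (10.9) and NES (5.16). The combination also had NEFM first (59.9 CPM per kb) and VIM next (45.6), while NEFL (9.40) stayed above PRPH (5.26). The place of VIM depends on the length taken: with its principal transcript of 2135 bases in place of 5158 bases of joined exons it was first in all 4 libraries, at 110.0 to 189.3 CPM per kb. With principal transcripts the order in DMSO was unchanged, but some neighbours lay closer. INA was then at 40.7 and NEFM at 39.7 CPM per kb, and NEFL at 16.9 and PRPH at 15.9. As a share of the 7 genes per kb of joined exon, NEFM made up 18.3% in DMSO, 33.4% with 13cRA, 20.1% with doxazosin and 32.0% with both drugs. VIM made up 35.6%, 25.2%, 33.3% and 24.3% in that order.

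Shares of cells with a count were compared after each cell was thinned to 34000 counts, which left 328 DMSO, 249 13cRA, 235 doxazosin and 270 combination cells. VIM and NEFM were found in nearly every cell: VIM in 92.4% to 97.9% and NEFM in 89.6% to 93.6% of the cells of a library. NEFL was found in 60.4% of DMSO cells (54.9% to 65.7%, exact binomial interval), 43.8% of 13cRA cells (37.5% to 50.2%), 60.4% of doxazosin cells (53.9% to 66.7%) and 46.3% of combination cells (40.2% to 52.4%). The intervals of both libraries with 13cRA lay below those of both without it. Unthinned, the NEFL shares were 70.0%, 49.7%, 78.7% and 60.3%.

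NEFH was found in 72.3% of DMSO, 83.1% of 13cRA, 69.8% of doxazosin and 77.8% of combination cells. NES was found in 19.2% of DMSO cells (15.1% to 23.9%), 32.5% of 13cRA cells (26.8% to 38.7%), 16.2% of doxazosin cells (11.7% to 21.5%) and 19.6% of combination cells (15.1% to 24.9%), so the 13cRA interval lay above the other 3. Without thinning, the NES share was 33.1% to 35.9% in all 4 libraries, with the 13cRA cells the shallowest. PRPH was found in 60.4% of DMSO, 46.2% of 13cRA, 52.8% of doxazosin and 37.8% of combination cells, and INA in 88.4%, 73.9%, 83.0% and 85.2%. For INA and PRPH the 13cRA share lay below the DMSO share while the CPM lay above it, so no order is read from these shares. Free RNA could not be set apart from expression, as no cell type lacking these genes was present.

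**Figure D3:**
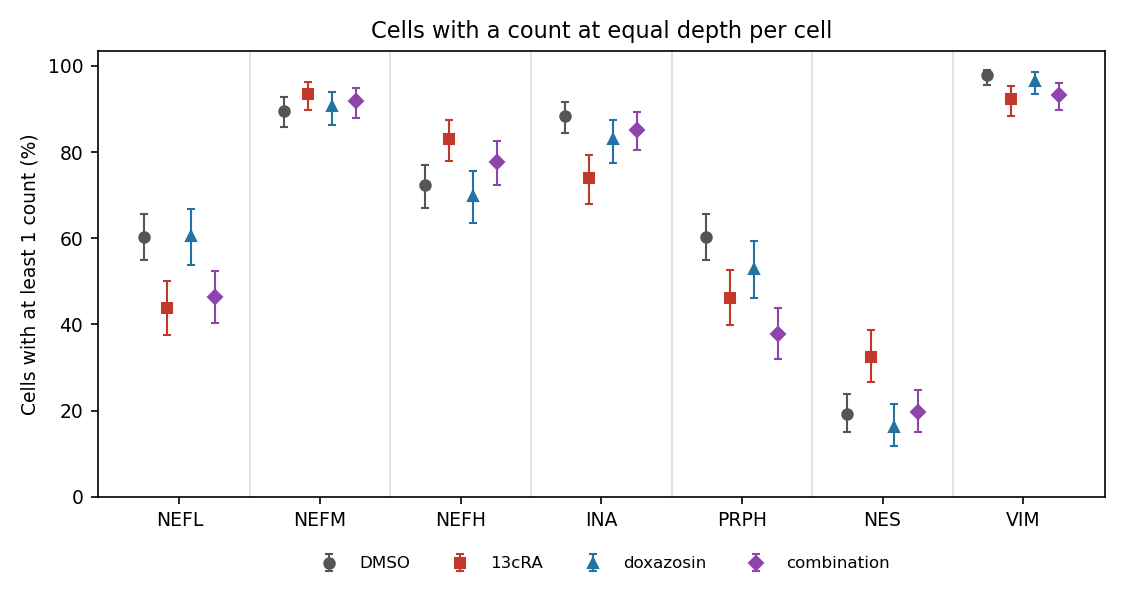
Share of cells with at least 1 count of each gene after thinning to 34000 counts per cell, in percent, with exact 95% binomial intervals. NEFL lies at 43.8% in 13cRA and 46.3% in the combination, against 60.4% in both other libraries, while NEFM stays between 89.6% and 93.6%. All genes of 50 to 100 CPM, a range that holds the NEFL mean per thinned cell in DMSO (64.5 CPM), had a median of 66.2% there. For doxazosin, where NEFL averaged 64.8 CPM, that median was 68.1%. The same range had 51.4% with 13cRA and 66.3% with both drugs, but NEFL averaged only 45.6 and 43.0 CPM there. Those means lie near the upper end of the 10 to 50 CPM range, whose medians were 22.9% and 31.85%. No contrast of NEFL with other genes is therefore read from these medians.

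Cells with NEFM but no NEFL count made up 34.8% of DMSO cells (29.6% to 40.2%), 53.0% of 13cRA cells (46.6% to 59.3%), 33.6% of doxazosin cells (27.6% to 40.1%) and 48.5% of combination cells (42.4% to 54.7%). The reverse, NEFL with no NEFM count, was found in 2.96% to 5.49% of cells. As NEFM was found in 89.6% to 93.6% of cells, the share with NEFM but no NEFL follows largely from the NEFL share. It is not a separate result. All 3 neurofilament subunits had a count in 40.9% of DMSO, 33.7% of 13cRA, 43.0% of doxazosin and 34.1% of combination cells, with overlapping intervals. The median cell had counts of 5 of the 7 genes in every library.

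At equal depth the 13cRA cell with the most NEFM stood at 2912 CPM and that of the combination at 2059, against 823.5 CPM for DMSO and 794.1 for doxazosin. The median NEFM level was 117.6 CPM in DMSO, 264.7 with 13cRA, 117.6 with doxazosin and 176.5 with both drugs, and the 90th percentile was 332.4, 1006, 294.1 and 529.4 CPM. The 10% of cells with the most NEFM reads held 28.5% of the NEFM reads in DMSO, 36.6% with 13cRA, 26.9% with doxazosin and 37.0% with both drugs. For all genes of 100 to 500 CPM the median of this share was 26.9%, 34.7%, 27.2% and 27.5%, so in 13cRA NEFM was near other genes of its level, while in the combination it was above the 3rd quartile of 30.9%. The top 10% of cells held 78.4% of the NES reads in DMSO, 61.6% in 13cRA and 73.5% in the combination. The median for genes of 10 to 50 CPM was 59.5%, 75.5% and 59.35% in that order. In doxazosin the NES share was 79.7%, but its mean of 8.64 CPM per thinned cell lay below that range. The NES mean was 13.3 CPM in DMSO, 31.1 in 13cRA and 10.7 in the combination. NES thus lay near the lower end of the range in DMSO and the combination, and no contrast with 13cRA is read from these shares.

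**Figure D4:**
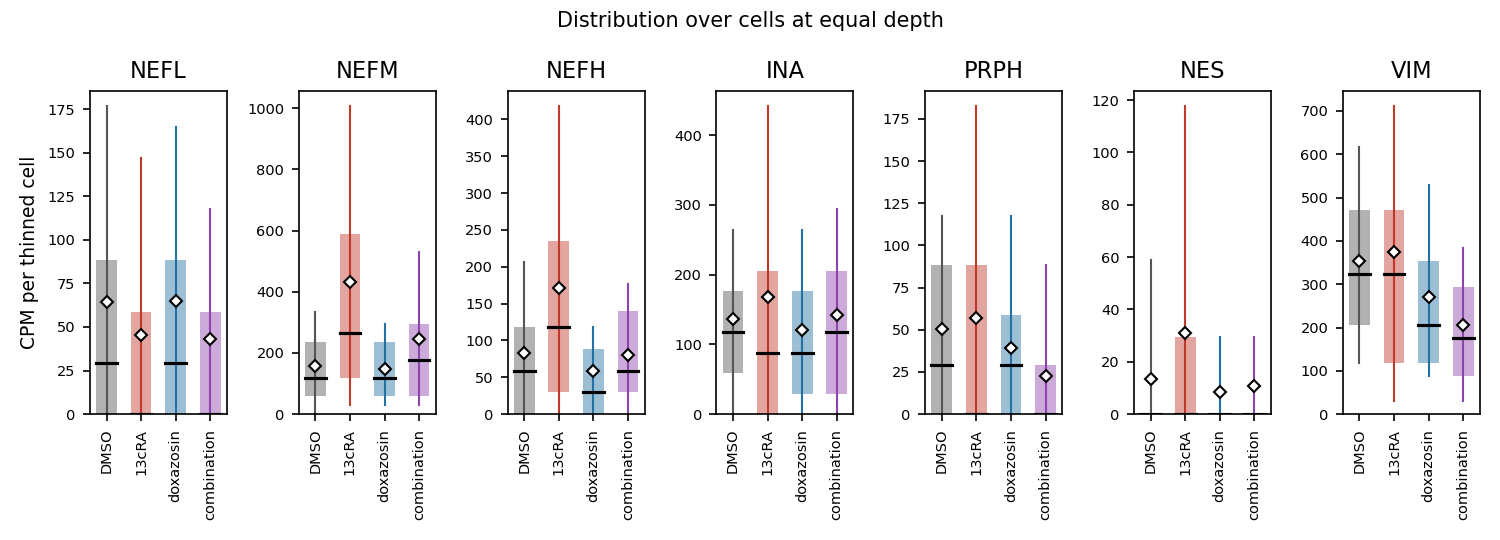
Level per cell in CPM after thinning to 34000 counts, for each gene and library: box from the 25th to the 75th percentile, line from the 10th to the 90th, black bar at the median, diamond at the mean. The NEFM median is 264.7 CPM in 13cRA and 176.5 in the combination, against 117.6 in both other libraries.

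Within a library the 7 genes varied together only weakly from cell to cell. Of the 21 pairs, 0 had a Spearman correlation of at least 0.2 across thinned cells in every library. Cells of 1 library share their chip, reagents and depth after thinning, so correlations are given as descriptions. NEFL and NEFM, whose proteins form the filament together, had correlations of 0.19 in DMSO, 0.15 with 13cRA, 0.19 with doxazosin and 0.10 with both drugs; their mean of 0.155 was the highest of the 21 pairs. The median over all pairs of 5919 genes was 0.014 to 0.026 in a library and the 95th percentile 0.113 to 0.140. In 13cRA, NEFM reached 0.23 with PRPH and 0.22 with VIM, the only 2 pairs at or above 0.2 in any library. NEFL and VIM reached -0.23 in doxazosin, and were between -0.05 and 0.07 in the other libraries.

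**Figure D5:**
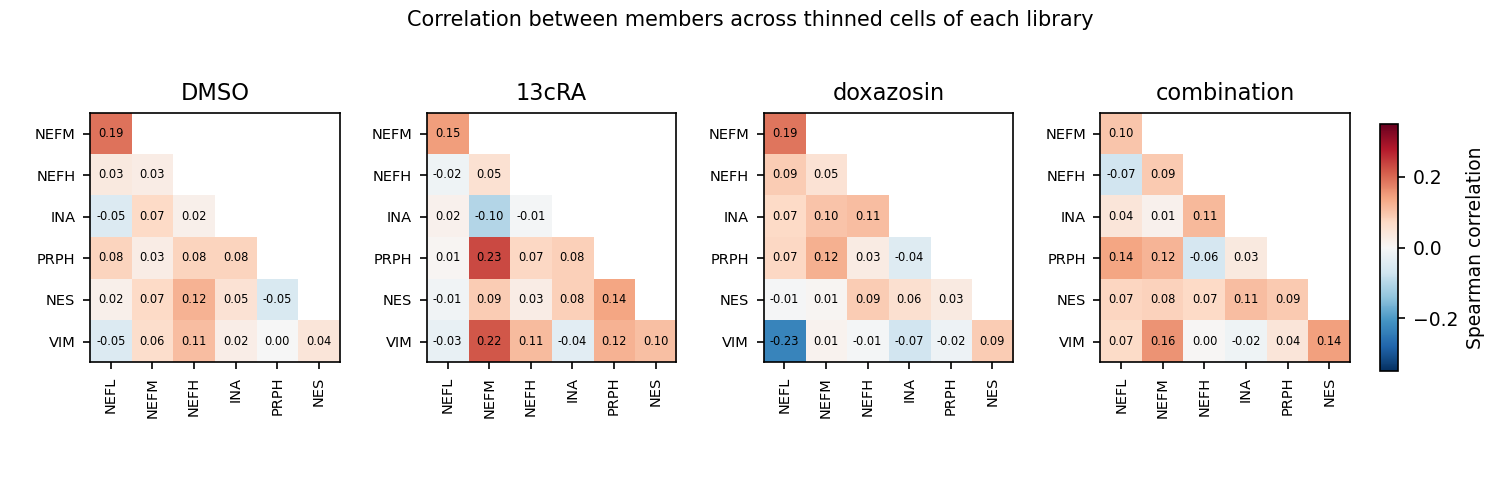
Spearman correlation between each pair of genes across thinned cells, 1 panel per library (328 DMSO, 249 13cRA, 235 doxazosin and 270 combination cells). NEFM with PRPH (0.23) and with VIM (0.22) in 13cRA are the highest values.

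The genes most like each member were taken as those with the highest mean Spearman correlation over the 4 libraries, among 5919 genes found in at least 20% of thinned cells of every library. For NEFL the first was NEFM (0.155), followed by CDIP1, CDKN1A, TUBA4A and TSPAN7 (0.128 to 0.144). For NEFM the first was STMN2, a regulator of microtubules in growing axons (0.176), then NEFL, RPS3, ANK2 and TUBB2B (0.138 to 0.155). INA was closest to TIMP2 (0.201), NEFH to NASP (0.146), PRPH to RPS3 (0.179) and VIM to RPS3 (0.193) and TPM2 (0.189). NES was not ranked, as it was found in under 20% of cells in 3 of the libraries. All of these values are weak.

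NEFM also varied with 2 genes that were far higher in the libraries with 13cRA. SCG2, a granin of secretory granules, stood at 33.4 CPM in DMSO, 245.2 with 13cRA, 42.0 with doxazosin and 188.7 with both drugs; ENPP2, which encodes autotaxin, stood at 1.64, 453.0, 1.13 and 395.4 CPM. Across 13cRA cells NEFM had a correlation of 0.33 with ENPP2 and 0.26 with SCG2, and across combination cells 0.21 and 0.20. Such values were not particular to NEFM. Across 13cRA cells PRPH had 0.23 with SCG2 and VIM had 0.21 with ENPP2, and across combination cells these were 0.115 and 0.166. Across 13cRA cells NEFM also had 0.24 with the mitochondrially encoded share, 0.21 with the count of a cell before thinning and -0.20 with the number of genes per thinned cell. Across combination cells it had 0.20 with the mitochondrially encoded share and -0.27 with the number of genes per thinned cell, of a size near its correlations with ENPP2 and SCG2 there, and the part of these was not tested. PRPH had 0.26 with the mitochondrially encoded share in both libraries with 13cRA.

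Genes that work with these filaments were counted in 7 lists. Over all genes tested, 17.1% were higher and 13.5% lower in 13cRA than in DMSO by 1.5-fold. In the combination these shares were 8.5% and 8.46%, and in doxazosin 4.2% and 4.57%. The lists are small, and the counts of each list are to be read beside these shares. List values are in CPM only and were not computed with TMM or DESeq2 factors. Between 13cRA and DMSO those factors moved the median of all genes from 0.00 to -0.32 and -0.28. List genes called higher in 13cRA by little more than the fold may thus not pass it with those factors, and further ones may be called lower. Of 10 axonal microtubule and growth cone genes, all measured, 2 were higher in 13cRA than in DMSO by 1.5-fold and none lower: CRMP1, a mediator of semaphorin signals (log2 difference 1.24), and GAP43, a growth cone protein (0.97). Without the cell of each library with the most reads of the gene, STMN2 was lower (-0.61 in place of -0.54). In the combination 3 were higher than in DMSO: CRMP1 (1.04), GAP43 (0.84) and the tubulin TUBA1A (0.62). The median of the list was -0.03 and 0.06 in these comparisons, near the 0.00 and -0.02 of all genes.

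Of 12 measured linkers and motors, 3 were higher in 13cRA and none lower, beside 17.1% and 13.5% of all genes, with a median of 0.24. The higher ones were DST, which anchors filaments to other structures (1.06), the kinesin light chain KLC1 (0.90) and the crosslinker MACF1 (0.59). Without the top cell of each library, taken in the same way, MACF1 was at 0.48 and no longer past the fold. In the combination 2 were higher than in DMSO and 1 lower, the dynein chain DYNC1I1 at 0.99, DST at 0.64 and MYO5A at -0.65. KLC2 was the 1 gene of this list past the fold in doxazosin against DMSO (2.79), and 92% of its reads there came from 1 cell. Of the other intermediate filaments 4 of 12 were measured: LMNA was higher in 13cRA (0.85), LMNB1 and LMNB2 were within the fold, and SYNM was lower in the combination (-0.68). GFAP, DES and the keratins KRT8, KRT18 and KRT19 were under 5 CPM in every library.

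Of 16 measured filament kinases and phosphatases, 3 were higher and 5 lower in 13cRA, beside 17.1% and 13.5% of all genes, with a median of -0.25. MAPK3 (ERK1) was at 1.27, CDK1 at -0.91, PLK1 at -0.87 and CDK5, which phosphorylates neurofilament tails, at -0.87. In the combination 2 were higher than in DMSO, MAPK3 (1.04) and PRKACA (0.62), and none lower. PRKACA was also among those higher in 13cRA (0.78), and 1 cell held 40.2% of its reads there and 17.6% in the combination; without the top cell of each library it was at 0.14 and 0.43, not past the fold, while PRKCA (-0.73) was then lower in the combination. Of 9 measured turnover and chaperone genes, 1 was lower in 13cRA, CASP6 (-1.04). In the combination CASP6 (-0.74), the calpain CAPN1 (-0.67) and the ubiquitin ligase STUB1 (-0.61) were lower, but none of the 3 was past the fold without the top cell of each library (-0.50, -0.57 and -0.58).

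Of 8 proteins that bind neurofilament or neuronal mRNA, 3 were lower in 13cRA and none higher, beside 13.5% and 17.1% of all genes. The lower ones were ARHGEF28 (-0.96), HNRNPK (-0.64) and ELAVL2 (-0.63). In the combination ARHGEF28 (-0.97) and ELAVL3 (-0.75) were lower. Without the top cell of each library ARHGEF28 was under 5 CPM in DMSO, 13cRA and the combination, and so not measured. Of 10 measured transcription factors, TWIST1 was higher (0.62) and ISL1, a factor of sympathetic neurons, lower (-2.11) in 13cRA. In the combination ISL1 was at -1.04, with 46.7% of its reads there from 1 cell, and at -1.83 without the top cell of each library. REST, a repressor of neuronal genes, was at 23.3 CPM in DMSO and between 23.3 and 28.6 CPM in the other libraries.

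The positions of the genes are those of GENCODE 29 on GRCh38, which may not be the release behind the counts. NEFM lies on chromosome 8 from 24913012 to 24919098 on the plus strand, with 3 exons, and NEFL 31.9 kb away from 24950955 to 24957110 on the minus strand, with 4. The 2 neighbours thus differed in opposite directions between 13cRA and DMSO, NEFM by 1.51 and NEFL by -0.54 on the log2 scale. NEFH lies on chromosome 22 from 29480230 to 29491390 (4 exons), INA on chromosome 10 from 103277163 to 103290351 (3 exons) and VIM on chromosome 10 from 17228259 to 17237593 (10 exons). PRPH lies on chromosome 12 from 49293252 to 49298686 (9 exons) and NES on chromosome 1 from 156668763 to 156677397 on the minus strand (4 exons). Antisense genes overlap NEFL, NEFM, NEFH, PRPH and VIM, with at most 3.68 CPM in any library (AF106564.1, beside NEFM, in DMSO). Whether the counting used strand is not given in the sources used here, so reads of a gene and its antisense partner cannot be told apart.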

How the data were processed

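The data are the authors' deposited counts of reads, unnormalized and with no molecular identifiers, in 1 table of 60651 gene IDs by 1287 cells; the authors tied each cell to its sample by column name, and 0 columns were unmatched. Per the labels' protocols, the 4 suspensions shared 1 ICELL8 chip, and imaging was used to choose wells that held 1 live cell. The submitters' processing notes name the tools STAR 2.7.8a, featureCounts, fastp 0.23.3, bcl2fastq and Seurat 4.3.0, and both GRCh37 and GRCh38.p13 with no role for either. Of the annotation release, the strandedness and the multimapping rule, each is not given in the sources used here. Cell names are numbers within a library and no barcode is given; 0 cells had identical counts.

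Cells with at least 500 genes and at most 25% mitochondrially encoded counts were kept. No doublet caller was run; 4 kept cells had over 9000 genes. Counts were summed per library and scaled to CPM, with differences as log2((CPM + 1)/(CPM + 1)) and exact 95% intervals (Poisson for levels, conditional binomial for ratios of levels, Clopper-Pearson for shares), computed in Python 3.11.15 with scipy 1.17.1 and tested on simulated data. Since amplified copies of 1 molecule are counted more than once, intervals cover counting error only. edgeR 4.0.16 (TMM) and DESeq2 1.42.0 gave scaling factors only. For shares and correlations 34000 counts were drawn from each cell without replacement, and cells with fewer were dropped: 69 of 13cRA, 25 of DMSO, 17 of the combination and 4 of doxazosin. Symbols matched 60481 IDs and not 170. Promoter sequences were matched by symbol in the RefSeq table for 4 members; NEFL, NEFM and NEFH are named only.

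The members and gene lists were chosen with earlier results of these data known. All 7 members are named, up to 4 genes of a list with the largest difference in a comparison, and the 5 genes most like a member. A result of the transcription factor list is not reported here. Alternatives were both sets of factors, a mean over cells of their CPM, 5 CPM as the pseudocount, all cells, only cells of 2000 genes or more, no low filter, a 2-fold limit, leaving out the 5 top cells, other thinning and other correlations; windows of depth or of genes per cell, dropping cells of over 9000 genes, summed thinned counts, the principal transcript length and, for list genes, leaving out the top cell were added after seeing the data.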

Additional observations from a re-analysis of the deposited data

Results flagged for a closer look

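For 3 genes the difference that goes with 13cRA had opposite signs without and with doxazosin; that contrast was not tested, as each treatment has 1 sample. PRPH was at 0.20 (log2) between 13cRA and DMSO and at -0.70 between the combination and doxazosin, a departure from additivity of -0.90. NES was at 0.96 and -0.28, a departure of -1.25. VIM was at 0.14 and -0.32, a departure of -0.46. With TMM factors or DESeq2 size factors the first value was negative for PRPH and VIM, so the signs were then alike, as they were among cells with 4000 to 4600 genes at equal depth (-0.46 and -0.42) and, for VIM, without the 5 cells with the most reads (-0.01). For NES the second value was positive with the mean of per-cell CPM (0.16), summed thinned counts (0.28), no cell filter (0.02), cells with 34000 to 120000 counts (0.10) and cells with 4000 to 4600 genes at equal depth (0.22).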

How the results depend on the processing

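No paired analysis was possible because each treatment has 1 sample. Counts of members past the fold stayed within 1.5 times their value in 53 of the 64 alternatives run on them and on the count of correlated pairs, which was 0 under all 4 of its own. These counts take higher and lower members together. Single values moved more: 195 log2 differences stayed within the counting error of their main value and 190 moved out of it. For shares, 15 stayed and 69 moved, and for ratios 17 and 19. Of the departures from additivity 35 stayed, 41 moved and 1 reversed. With a 2-fold limit the counts were 1 in place of 5 for the combination against DMSO, 3 in place of 5 against 13cRA and 0 in place of 2 against doxazosin. Under TMM or DESeq2 scaling, 3 members in place of 5 were past the fold for the combination against 13cRA. In the windows chosen after seeing the data, cells with 34000 to 120000 counts gave 3 in place of 5 against DMSO and 4 in place of 2 against doxazosin for the combination. Cells with 4000 to 4600 genes at equal depth gave 1 in place of 0 for doxazosin against DMSO, 2 in place of 5 for the combination against DMSO and 2 in place of 5 against 13cRA; this window holds 38 to 103 cells of a library. Summed thinned counts gave 3 in place of 5 for the combination against DMSO. The departure from additivity of NEFM turned from -0.71 to 0.081 in the window of genes; the cause was not tested. No log2 difference past the fold changed sign under any alternative. The NEFM to NEFL ratio ranged over 2.28 to 2.90 in DMSO, 6.49 to 9.84 in 13cRA, 2.12 to 2.55 in doxazosin and 5.65 to 6.72 in the combination. The 13cRA library, with the fewest counts, limits the precision of its comparisons, and NES, with 507 to 685 counts in a library, has the widest intervals.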
